A study of Mus musculus with 4 samples.

Results

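Splicing factors and heterogeneous nuclear ribonucleoproteins (hnRNPs) were followed in mouse lung fibroblasts over 4 ages. The members were taken by gene name: the SR proteins (Srsf), the hnRNPs, the Sm and snRNP proteins (Snrp), the SF3 and U2AF subunits, and the Rbfox, Mbnl, Celf, Ptbp and Esrp families. The deposited table held 70 such genes among 23444 symbols, and 64 of them reached 1 FPKM (fragments scaled by transcript length and library size) in at least 1 library. The 6 that did not were Celf3, Celf4, Celf5, Celf6, Rbfox3 and Srsf12. The highest value among these 6 was 0.661 FPKM for Celf4. Of the members kept, Rbfox1 had the lowest maximum over the 4 libraries, 2.0 FPKM. The cells were sorted as Pdgfra-positive from lungs of wild-type C57BL6 mice of 4 ages: E16.5 and E18.5, where E is the embryonic day, and P7 and P28, where P is the day after birth. Where 4 values follow each other they are in this order of age. Pdgfra encodes a growth factor receptor (PDGF receptor alpha), and the labels give no transgene or treatment. There was 1 library per age, so no spread between animals can be given and no difference below was tested. The number of animals behind a library was not stated.

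Introns are removed by the spliceosome, in which small nuclear RNAs act with proteins. The Sm proteins form a ring around most of these RNAs, and SF3A, SF3B and U2AF help to recognise the branch point and the 3′ splice site. SR proteins bind exons and mostly favour their inclusion, while hnRNPs coat nascent transcripts and often act against the use of nearby splice sites. The Rbfox, Mbnl, Celf, Ptbp and Esrp families set which exons are used in particular cell types and stages. Ptbp1 is broad and Ptbp2 is best known from developing neurons, Esrp1 and Esrp2 mark epithelium, and in heart and muscle Mbnl proteins take over from Celf proteins as development goes on.

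Of the 4 libraries E18.5 had the lowest overall scale: its factor in median-ratio scaling was 0.573, and those of the other 3 libraries were at 1.13 or above. Values are therefore given as deposited, with those after this scaling beside them. Depth is unknown, since FPKM values carry no totals of reads. Pdgfra was at 88.7, 95.9, 113 and 188 FPKM, and all 10 fibroblast markers reached 1 FPKM. RNA of other cell types was also present. The sum of 10 epithelial markers ranged from 36.3 FPKM at E16.5 to 30309 at P28, and that of 8 endothelial markers from 23.2 at E16.5 to 748 at P7. The 8 leukocyte markers summed to 1363, 65.7, 19.4 and 5065 FPKM. The P28 sum was nearly all Lyz2, at 5062, while the other 7 were highest at E16.5, with Ctss at 167 there and 0.276 at P28. The 5 erythroid markers summed to 5.02, 486, 21.3 and 1.64 FPKM, with their peak at E18.5, where the 4 that reached 1 FPKM were all at least 2-fold above E16.5 on both scales. In such bulk samples, fewer cells of a type and less RNA per cell cannot be told apart.

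Most splicing factors and hnRNPs were at their highest at E16.5 and were lower at P28. As deposited, 23 of 64 members (35.9%) were at least 2-fold lower at P28 than at E16.5 with the higher library at 5 FPKM or more, against 9.51% of 12561 symbols. After scaling 20 members passed the same threshold, all of them among the 23, against 8.57% of symbols. On either scale 1 member was higher, Hnrnpd, against 10.1% of symbols as deposited and 9.72% after scaling. Hnrnpd was listed at 0 at E16.5. The member median of the log2(FPKM + 1) difference was -0.83 as deposited and -0.81 after scaling, while over all symbols it was -0.03 and -0.02. In this comparison 56 of 64 members lay below the median of all symbols on either scale. Of the marker lists, 10 of 10 cell division and 7 of 8 leukocyte markers were also at least 2-fold lower at P28 than at E16.5 on both scales, and 10 of 10 epithelial markers were higher. The part of these cells in the member levels was not tested. Of all summed FPKM the members made up 1.44%, 0.947%, 1.26% and 0.605%. Without genes of the other cell type lists and ribosomal protein genes in the total, these shares were 1.69%, 1.12%, 1.362% and 0.765%.

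The rank of the members among the 12561 symbols, which does not depend on scaling, gave the same ends. Their median rank was 1450, 1998, 1914 and 2481, where rank 1 is the highest FPKM. Of the 64 members, 23 stood among the 1000 highest symbols at E16.5 and 14 at P28. The most abundant member, Hnrnpk, which binds C-rich sequences, ranked 96th at E16.5 and 175th at P28.

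**Figure D1:**
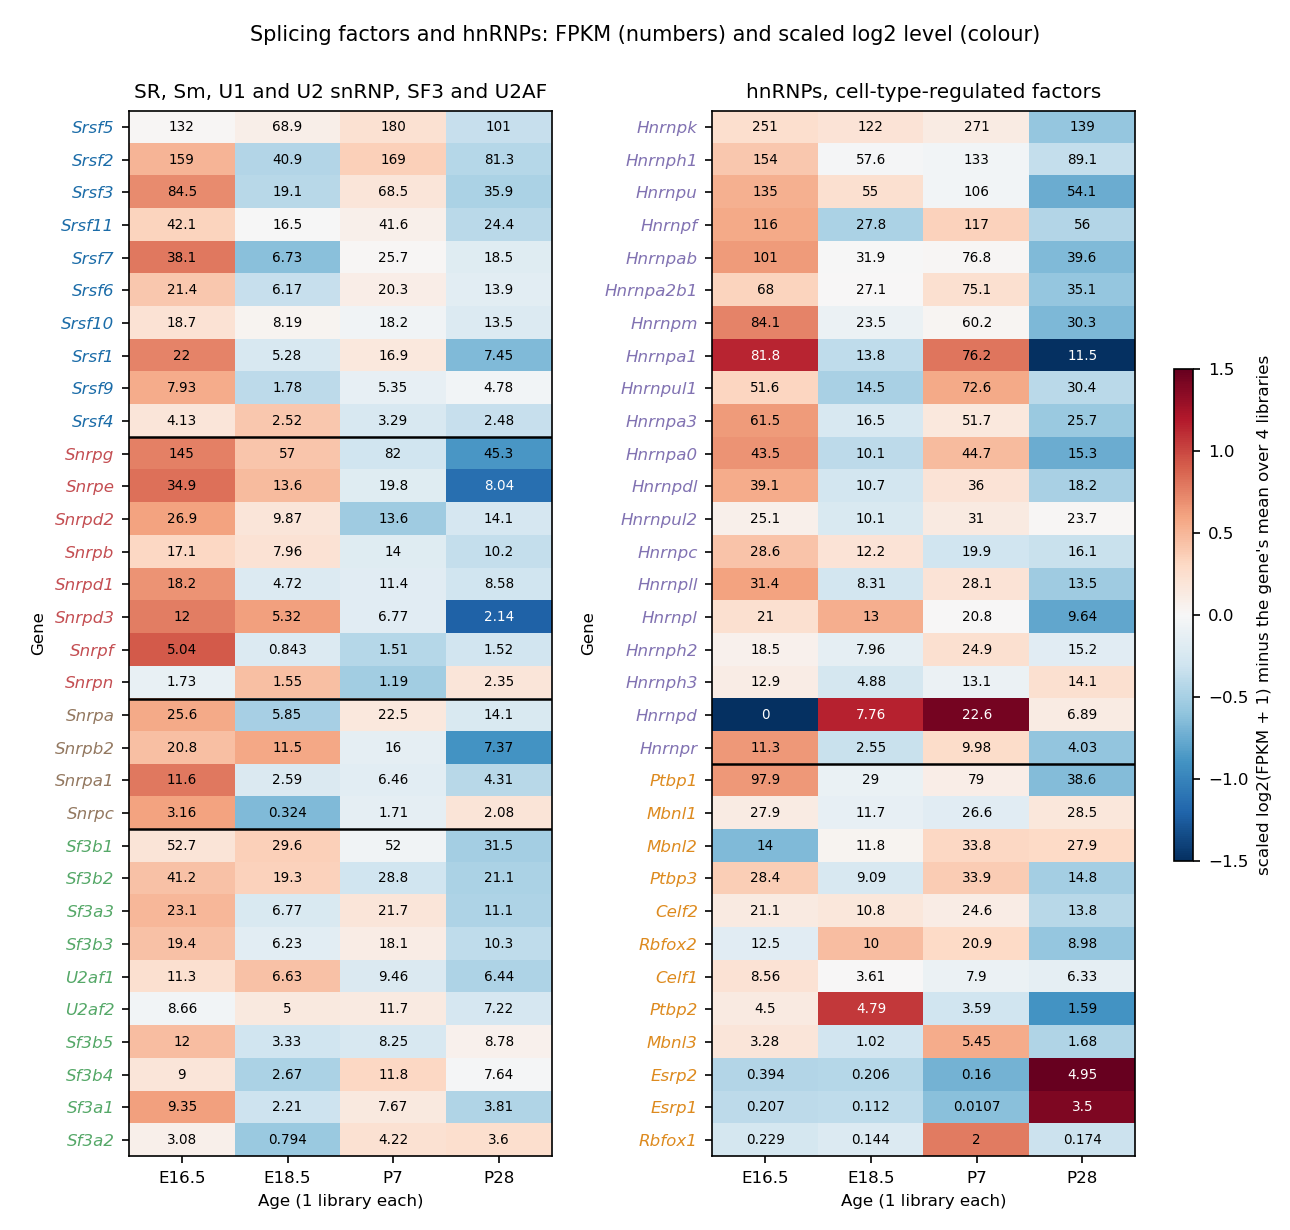
Each row is 1 of the 64 members and each column 1 library. Numbers are FPKM as deposited, colours are the scaled log2(FPKM + 1) minus the mean of the gene over the 4 libraries (values beyond 1.5 are drawn at the end of the scale), and label colours mark the role classes. Red is most common at E16.5 and blue at P28, with Mbnl2, Esrp1 and Esrp2 among the rows that run the other way.

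Between these ends the order of the libraries was not one of age. As deposited, E16.5 and P7 were both above E18.5 and P28 for 51 of 64 members (79.7%), against 39.5% of all symbols. After scaling this held for 29 members (45.3%) and 18.9% of symbols. On that scale 11 of 64 members were lower at each successive age, as were 797 of 12561 symbols. A set of 10 cell division markers also had E16.5 and P7 above E18.5 and P28, with a summed FPKM of 421, 61.6, 289 and 41.5. The part of cell division in the level of the splicing genes was not tested. The lowest library was E18.5 for 49 members as deposited and for 13 after scaling, and P28 for 11 and 43. Of all 12561 symbols, E18.5 was the lowest for 8868 as deposited and 3499 after scaling. P28 was the lowest for 1694 and 3709 of them.

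Of the 5 comparisons, P7 against E18.5 and E18.5 against E16.5 differed most between the scales. In E18.5 against E16.5 as deposited, 45 members were at least 2-fold lower and 1 higher at E18.5, against 22.6% and 1.11% of all symbols. After scaling 7 were lower and 1 higher, against 5.72% and 4.66%. Those 7 were Hnrnpa0, Hnrnpa1, Hnrnpf, Snrpa, Snrpa1, Srsf3 and Srsf7, and the 1 higher was Hnrnpd, listed at 0 at E16.5. The member median was -0.39 after scaling and that of all symbols -0.02, and 48 of 64 members lay below the latter.

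P7 against E18.5 spans birth. As deposited 41 members were at least 2-fold higher and 0 lower at P7, against 33.3% and 1.52% of all symbols, but after scaling only Hnrnpa1 and Hnrnpul1 were higher and Ptbp2 lower, against 7.3% and 5.84% of symbols. The scaled member median of 0.13 was near that of all symbols, 0.05. From P7 to P28, 18 members were at least 2-fold lower and 0 higher as deposited, against 9.57% and 5.95% of symbols. After scaling 3 were lower, Hnrnpa0, Hnrnpa1 and Hnrnpd, and 0 higher, against 5.73% and 6.85%. Here 52 of 64 members still lay below the median of all symbols after scaling, with medians of -0.52 and -0.03, so the shift was broad and mostly under 2-fold.

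P7 against E16.5 had the fewest 2-fold members of the 5 comparisons as deposited, but not after scaling. As deposited, 2 members were at least 2-fold higher at P7 (Hnrnpd and Mbnl2) and 1 lower (Snrpf), against 8.84% and 3.75% of all symbols. After scaling Hnrnpd was higher, and Snrpd2, Snrpe and Snrpg were lower, against 6.08% and 4.6%. The 5 comparisons share libraries, so their counts are not independent of each other.

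**Figure D2:**
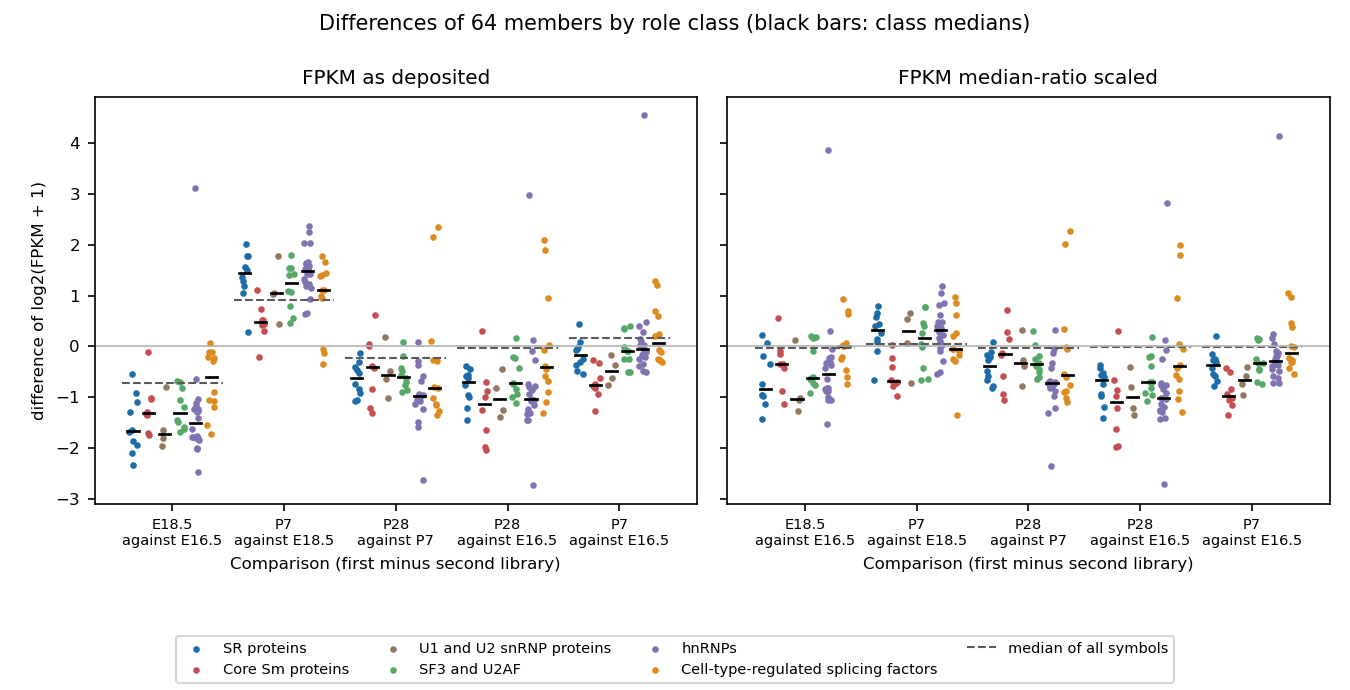
Each point is 1 of 64 members, placed by comparison and coloured by role class, and the vertical axis is the difference of log2(FPKM + 1), first minus second library. Black bars are class medians and dashed lines the median of all 12561 symbols; after scaling the P28 against E16.5 medians of all 6 classes lie below the dashed line, and the highest points are Hnrnpd.

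Of the SR proteins, which carry arginine and serine repeats, 10 were measured and each was lower at P28 than at E16.5 on both scales. The differences ran from -0.38 to -1.44 as deposited, and 3 of 10 passed the 2-fold threshold (2 once scaled). Srsf2, which also acts in transcription elongation, was at 159, 40.9, 169 and 81.3 FPKM. The E16.5 and P7 libraries were both above the other 2 for this gene, as for all 10 SR genes as deposited and 6 after scaling. Srsf3, the smallest SR protein, was at 84.5, 19.1, 68.5 and 35.9 FPKM in order of age, which made it 2.36-fold lower at P28 than at E16.5. Srsf1, the founding SR protein, stood at 22.0, 5.28, 16.9 and 7.45 FPKM. Its P28 level was 2.95-fold below that of E16.5, the widest gap of the class.

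Srsf5, at 132, 68.9, 180 and 101 FPKM in order of age, had the smallest difference between P28 and E16.5 in the class, -0.38. After scaling its 4 values were 115, 120, 133 and 89.1, so they lay within a factor of 1.49. Srsf7 was at 38.1, 6.73, 25.7 and 18.5 FPKM, and at E18.5 it was 5.66-fold below E16.5, or 2.83-fold after scaling. Srsf11, Srsf6, Srsf10, Srsf9 and Srsf4 were lower at P28 by 0.45 to 0.76 on the log2 scale as deposited, and none of these 5 was 2-fold lower.

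The Sm ring proteins were the class with the lowest summed level after birth relative to E16.5. Their sum was 260, 101, 150 and 92.2 FPKM, or 227, 176, 111 and 81.6 after scaling. The scaled Sm sum was thus lower at each successive age, as were those of the U1 and U2 proteins (53.4, 35.3, 34.5 and 24.6) and of SF3 and U2AF (166, 144, 128 and 98.7). Among single genes of these classes this held only for Snrpb, Snrpd3, Snrpe, Snrpg and Sf3b2, and for no U1 or U2 gene. Snrpg alone made up 126 of the scaled Sm sum of 227 at E16.5. The Sm share of the summed FPKM of members was 10.03%, 10.6%, 6.14% and 6.92%, a comparison inside each library. Snrpg (SmG) was at 145, 57, 82 and 45.3 FPKM, 3.20-fold lower at P28 than at E16.5. Snrpe (SmE) was at 34.9, 13.6, 19.8 and 8.04 FPKM, 4.34-fold lower. Snrpd3 (SmD3, GRCm38 chromosome 10, 75517551 to 75537381, plus strand) was at 11.95, 5.32, 6.77 and 2.14 FPKM, and its 5.57-fold gap was the widest of the class.

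P28 was the lowest library for these 3 Sm genes, and E16.5 the highest, with Snrpb, the SmB gene, also lower at each successive age after scaling. Snrpd2 (SmD2) was at 26.9, 9.87, 13.6 and 14.1 FPKM and was 1.91-fold lower at P28 than at E16.5, with its lowest value at E18.5 as deposited and at P7 after scaling. Snrpd1 was at 18.2, 4.72, 11.4 and 8.58 FPKM and Snrpf at 5.04, 0.843, 1.51 and 1.52. In P7 against E16.5, all 8 Sm genes lay below the median of all symbols on both scales, with a class median of -0.97 after scaling. Over SR proteins that median was -0.36 and over hnRNPs -0.29. Snrpn, an imprinted gene for the SmN protein of neurons, was the exception in P28 against E16.5, at 1.73, 1.55, 1.19 and 2.35 FPKM with a difference of 0.30.

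The 4 members classed as U1 and U2 proteins had a class median of -1.03 for P28 against E16.5, and on both scales 2 of these 4 genes passed the 2-fold threshold. Other proteins of these particles, such as Snrnp70 and the SF3 subunits, were not in this class. Snrpa, the A protein of U1, was at 25.6, 5.85, 22.5 and 14.1 FPKM. Snrpb2, the B″ protein of U2, was at 20.8, 11.5, 16.0 and 7.37 FPKM and Snrpa1, the A′ protein of U2, at 11.6, 2.59, 6.46 and 4.31. The first of these was 2.83-fold and the second 2.69-fold lower at P28 than at E16.5. Snrpc, the C protein of U1, stayed low, with 0.324 FPKM at E18.5 and 3.16 at E16.5 as its ends.

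Branch point and 3′ splice site factors were lower at P28 than at E16.5 for 9 of 10 genes, mostly by less than 2-fold. Of 10 SF3 and U2AF genes 1, Sf3a1, was at least 2-fold lower at P28 than at E16.5, a share near the 9.51% of all symbols. Its levels were 9.35, 2.21, 7.67 and 3.81 FPKM. Sf3b1, the branch point subunit that is often mutated in myelodysplasia, was at 52.7, 29.6, 52.0 and 31.5 FPKM. After scaling it was highest at E18.5, at 51.6. Sf3b2 was at 41.2, 19.3, 28.8 and 21.1 FPKM and Sf3a3 at 23.1, 6.77, 21.7 and 11.1. Of the U2AF subunits, U2af1 was at 11.3, 6.63, 9.46 and 6.44 FPKM, and U2af2 at 8.66, 5.0, 11.7 and 7.22. The highest library was 1.76-fold above the lowest for U2af1 and 2.34-fold for U2af2, or 2.03-fold and 1.36-fold after scaling.

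The hnRNPs held about as much FPKM as all other members together, from 48.6% of the member sum at P28 to 52.7% at P7. Of 20 hnRNP genes 11 were at least 2-fold lower at P28 than at E16.5 on either scale, with a class median of -1.04 as deposited. Hnrnpk led the class at 251, 122, 271 and 139 FPKM, followed by Hnrnph1, a binder of G runs, at 154, 57.6, 133 and 89.1. Hnrnpu, a nuclear scaffold protein, was at 135, 55, 106 and 54.1 FPKM, 2.49-fold lower at P28. Hnrnpk and Hnrnph1 were less than 2-fold apart between these ages.

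Hnrnpa1, the archetypal splicing repressor, had the largest log2 difference of P28 from E16.5 among the members above 0 in both libraries (GRCm38 chromosome 15, 103240432 to 103246692, plus strand). It was at 81.8, 13.8, 76.2 and 11.5 FPKM. The fetal E16.5 library and P7 were high, the other 2 low, and the 2 pairs did not overlap on either scale (71.4, 24.2, 56.2 and 10.1 after scaling). At P28 it was 7.14-fold below E16.5, a log2 difference of -2.73, and its rank went from 316 to 2935. Transcripts of 9 annotated pseudogenes match Hnrnpa1 at 95% identity or more over at least 200 bases, so its reads are less certain. Of the 64 members 32 have a match of this kind in another gene, which is a pseudogene for 23 of them. Hnrnpa3 has 28 such matches, 27 of them pseudogenes. Hnrnpa0, for which no such copy was found, was at 43.5, 10.1, 44.7 and 15.3 FPKM, also with E16.5 and P7 above E18.5 and P28. As deposited its highest library was P7 and its lowest E18.5, where for Hnrnpa1 these were E16.5 and P28.

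Other hnRNPs with a 2-fold gap on both scales were Hnrnpm, at 84.1, 23.5, 60.2 and 30.3 FPKM, and Hnrnpf, at 116, 27.8, 117 and 56.0. Hnrnpab, Hnrnpa3, Hnrnpdl, Hnrnpl, Hnrnpll and Hnrnpr were also 2-fold lower at P28 than at E16.5 on both scales. Hnrnpl was at 21, 13, 20.8 and 9.64 FPKM, and after scaling its E18.5 value was the highest of the 4. Hnrnph3, at 12.9, 4.88, 13.1 and 14.1 FPKM, was not lower at P28 than at E16.5 on either scale. Hnrnpul2, at 25.1, 10.1, 31.0 and 23.7, was lower at P28 than at E16.5 by less than 2-fold. Hnrnpul1 was highest at P7, at 72.6 FPKM against 51.6, 14.5 and 30.4 at E16.5, E18.5 and P28. Hnrnpd (AUF1), which binds AU-rich elements, was listed at 0 at E16.5 and at 7.76, 22.6 and 6.89 FPKM later. The meaning of an exact 0 in this table was not stated and may be an estimate that failed, so no fold is given for it. Hnrnpd is the 1 member higher at P28 than at E16.5 in the counts above. It is also counted as higher at E18.5 and at P7 than at E16.5, so these calls rest on the same 0.

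Promoter sequence is shown for 3 of the members that were low at E18.5 after scaling and, beside them, for Mbnl2, whose level at P28 was above that at E16.5. Each is the 150 bases before the RefSeq start on GRCm38.p6, given 5′ to 3′ on the strand of the gene, and capitals mark matches on either strand to CCAAT (the CCAAT box), GGGCGG (the GC box), CACGTG (an E-box), TATAAA (the element for TBP), CCGGAAGT (an ETS-type motif) or TGACGTCA (a cyclic AMP response motif), where matches can overlap.
Hnrnpa1 (chr15:103240247-103240396, plus): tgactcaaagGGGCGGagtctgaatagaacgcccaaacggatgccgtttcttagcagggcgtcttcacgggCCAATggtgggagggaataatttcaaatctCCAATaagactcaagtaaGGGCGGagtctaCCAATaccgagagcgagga
Hnrnpa0 (chr13:58128557-58128706, minus): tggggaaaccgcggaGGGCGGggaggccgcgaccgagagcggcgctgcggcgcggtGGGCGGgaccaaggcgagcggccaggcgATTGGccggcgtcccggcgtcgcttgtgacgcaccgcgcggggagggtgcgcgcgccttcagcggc
Srsf7 (chr17:80207306-80207455, minus): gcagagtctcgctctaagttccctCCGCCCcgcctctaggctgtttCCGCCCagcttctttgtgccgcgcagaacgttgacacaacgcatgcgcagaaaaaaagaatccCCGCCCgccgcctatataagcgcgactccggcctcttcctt
Mbnl2 (chr14:120275519-120275668, plus): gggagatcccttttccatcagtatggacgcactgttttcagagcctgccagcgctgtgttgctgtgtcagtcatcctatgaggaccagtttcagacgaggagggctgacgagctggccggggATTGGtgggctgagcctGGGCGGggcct
Hnrnpa1 has 3 CCAAT and 2 GGGCGG matches, Srsf7 has 3 GGGCGG matches on the opposite strand, and Hnrnpa0 and Mbnl2 hold both motifs too. Promoter windows were in the RefSeq table for 53 of 64 members, with 77 windows. In the 250 bases before the start, GGGCGG was in 62.3% of member windows and in 32.7% of all 32851 windows, CCAAT in 41.6% and 33.8%, and CACGTG in 9.09% and 6.02%. For TATAAA the shares were 10.4% and 12.4%, for CCGGAAGT 11.7% and 2.88%, and for TGACGTCA 2.60% and 1.55%. Member windows are those of members at 1 FPKM or more, while the 32851 windows were not limited to expressed genes. The 2 sets thus differ in more than splicing. Windows of 1 gene overlap or lie close, and a match is a description of the sequence only.

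Among the factors that differ between cell types, Ptbp1, the polypyrimidine tract binding protein, followed the hnRNPs, at 97.9, 29.0, 79.0 and 38.6 FPKM. It was 2.53-fold lower at P28 than at E16.5. Ptbp3 was at 28.4, 9.09, 33.9 and 14.8 FPKM. Ptbp2 (GRCm38 chromosome 3, 119718742 to 119784466, minus strand) was at 4.50, 4.79, 3.59 and 1.59 FPKM, the 1 member that was highest at E18.5 as deposited. After scaling its E18.5 value of 8.35 was 2.13-fold that of E16.5. Ptbp1 was the most abundant of the 3 in every library.

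Mbnl2, a muscleblind protein (GRCm38 chromosome 14, 120275669 to 120431697, plus strand), was at 14.0, 11.8, 33.8 and 27.9 FPKM. Both postnatal values were above both fetal values, as deposited and after scaling (12.2, 20.5, 24.9 and 24.7). The difference of P7 from E16.5 was 1.22 as deposited and 0.97 after scaling, so it passed 2-fold on the first scale only. Mbnl1 was at 27.9, 11.7, 26.6 and 28.5 FPKM, and Mbnl3, the X-linked member, at 3.28, 1.02, 5.45 and 1.68. Celf2 was at 21.1, 10.8, 24.6 and 13.8 FPKM and Celf1 at 8.56, 3.61, 7.90 and 6.33. Both Celf genes were lower at P28 than at E16.5 by less than 2-fold.

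Rbfox2 was at 12.5, 10.03, 20.9 and 8.98 FPKM, highest at P7 as deposited and at E18.5 after scaling. Rbfox1, which neurons and muscle express, was at 0.229, 0.144, 2.0 and 0.174 FPKM, and Rbfox3, known as the neuronal nuclear marker NeuN, was at 0.490 at P7 and below 0.05 elsewhere. Of 8 neuron markers 2 reached 1 FPKM, and their summed level was 1.22, 1.12, 33.4 and 8.45 FPKM. That sum was mostly Stmn2, at 31.7 at P7, while Snap25 and Tubb3 stayed under 0.15 in every library. The part of neuronal RNA in the Rbfox1 value was not tested.

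Esrp1 and Esrp2, the epithelial splicing regulators, were near 0 until P28. Esrp1 was at 0.207, 0.112, 0.0107 and 3.50 FPKM and Esrp2 at 0.394, 0.206, 0.160 and 4.95. P28 was 17.0-fold and 12.6-fold above E16.5, although neither gene reached 5 FPKM and they are in no count of 2-fold members. All 10 epithelial markers were also at least 2-fold higher at P28 than at E16.5. Cdh1, epithelial cadherin, was at 3.14, 1.61, 0.296 and 36.6 FPKM, and Scgb1a1 and Sftpc were at 19258 and 10149 at P28. The part of epithelial RNA in the Esrp values was not tested.

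**Figure D3:**
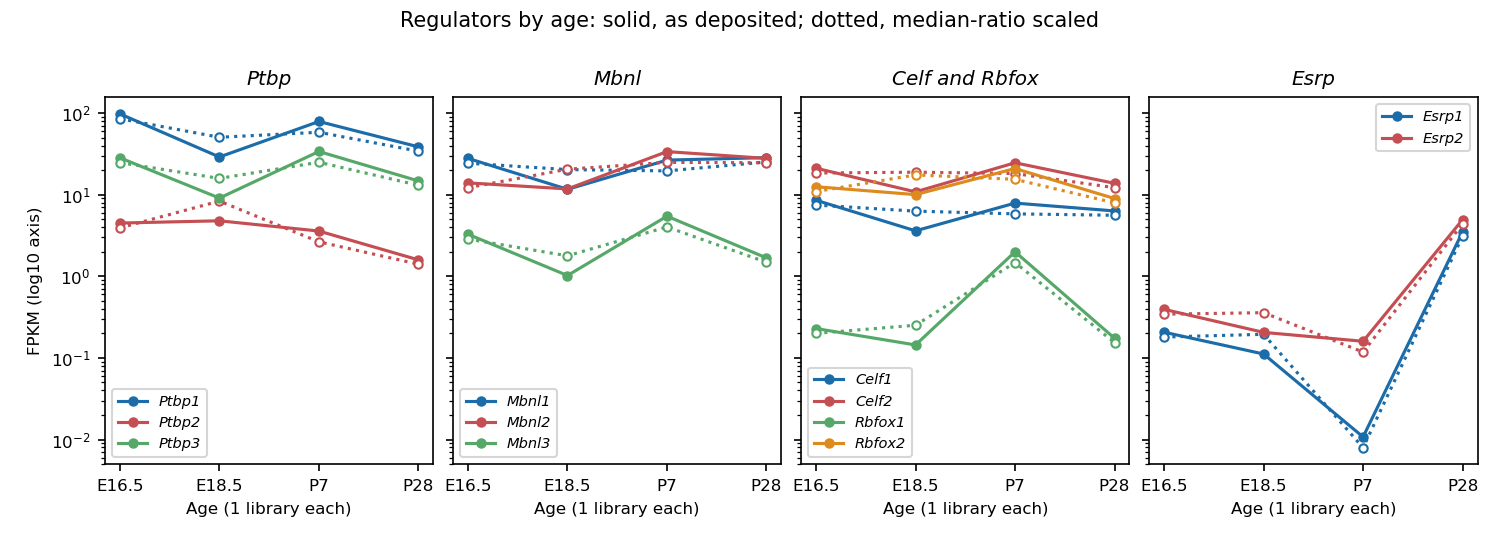
FPKM on a log10 axis of 12 cell-type-regulated splicing factors at the 4 ages, with solid lines as deposited and dotted lines after median-ratio scaling. Ptbp2 has its top at E18.5 in both kinds of line, Celf2 and Rbfox2 only in the dotted lines, Mbnl2 crosses Mbnl1, Rbfox1 is highest at P7, and Esrp1 and Esrp2 are highest at P28.

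The ratio of 2 related genes inside 1 library does not depend on its scale. Ptbp1 to Ptbp2 was 21.8, 6.06, 22.0 and 24.3, so the E18.5 library was apart from the other 3. The ratio of Mbnl1 to Mbnl2 was 2.0 at E16.5 and 0.990, 0.786 and 1.02 later, so E16.5 was apart. Hnrnpa1 to Hnrnpa2b1 was 1.2, 0.512, 1.02 and 0.326, where E16.5 and P7 were close and the other 2 libraries lower. Srsf1 to Srsf5 was 0.167 at E16.5 and between 0.0739 and 0.0936 later.

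Other pairs moved less, or rest on low values. Snrpb to Snrpn was 9.87, 5.15, 11.7 and 4.34, with Snrpn under 2.4 FPKM throughout. Mbnl1 to Mbnl3 was 8.50, 11.4, 4.87 and 17.0. Rbfox2 to Rbfox1 was 54.7, 69.6, 10.5 and 51.6, with Rbfox1 under 0.25 FPKM outside P7. Esrp1 to Esrp2 was 0.525, 0.543, 0.0673 and 0.708, with both genes near 0 until P28. Celf1 to Celf2 lay between 0.320 and 0.459, Ptbp1 to Ptbp3 between 2.33 and 3.45, Srsf3 to Srsf7 between 1.94 and 2.83, and Hnrnph1 to Hnrnpf between 1.14 and 2.07. U2af1 to U2af2 was above 1 in both fetal libraries, at 1.31 and 1.33, and below 1 after birth, at 0.808 and 0.892. Each such ratio shows unequal levels of 2 genes and not which of them differed.

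**Figure D4:**
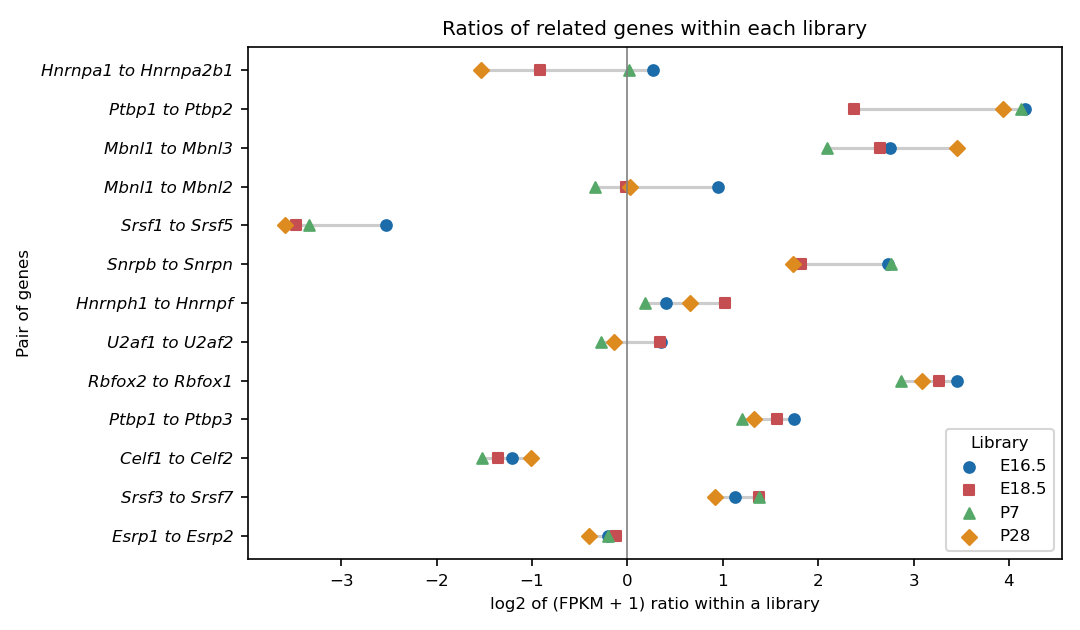
For 13 pairs, each marker is the log2 of the ratio of FPKM + 1 in 1 library, and the grey line joins the lowest and highest library. On this scale Hnrnpa1 to Hnrnpa2b1 and Ptbp1 to Ptbp2 have the widest range, 1.80 each, with E18.5 and P28 low in the first and E18.5 alone low in the second. Without the added 1 FPKM, the highest ratio was 10.5-fold the lowest for Esrp1 to Esrp2 and 6.64-fold for Rbfox2 to Rbfox1, which rest on low values. For Ptbp1 to Ptbp2 it was 4.01-fold and for Hnrnpa1 to Hnrnpa2b1 3.69-fold.

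Other splicing genes also had a median below that of all symbols at P28 against E16.5, but not every list held more 2-fold lower genes than all symbols did. Of 146 genes at 1 FPKM or more on 8 further lists, 27 were at least 2-fold lower and 2 higher at P28 than at E16.5 (24 and 1 once scaled), with medians of -0.55 and -0.52. These are 18.5% and 16.4% lower, where all symbols had 9.51% and 8.57%. As deposited, the U4/U6.U5 and LSm list had 9 of 28 lower, RNA-binding regulators 12 of 41, SR-related proteins 2 of 13, exon junction proteins 2 of 7, Sm assembly factors 1 of 14 and activation and catalysis factors 1 of 28, the last 2 being below the share of all symbols. For SR kinases 0 of 6 and for the minor spliceosome 0 of 9 were. Clk1, a kinase that phosphorylates SR proteins, was at 88, 50.02, 40.8 and 59.1 FPKM, and Clk4 at 19.8, 12.8, 13.1 and 20.7. Both were over 2-fold lower at P7 than at E18.5 after scaling (-1.5 and -1.12). As deposited neither was, and Clk4 was slightly higher at P7. Immediate early genes can rise with cell handling, among other signals. The list of 20 used here also held the heat shock genes Hspa1a and Hspa1b, both counted as lower on each scale. After scaling, 11 of 20 were at least 2-fold lower at P7 than at E18.5 (5.84% of all symbols) and 2 higher (7.3%). As deposited 7 of 20 were lower (1.52%) and 3 higher (33.3%). The part of these genes in the Clk values was not tested.

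The most abundant RNA-binding regulators were Rbm3, a cold-inducible protein, at 249, 60.7, 271 and 64.2 FPKM, and Ybx1 at 207, 57.7, 220 and 90.2. Both had E16.5 and P7 above the other 2 libraries. Prpf8, the core of the spliceosome, was at 47.3, 14.7, 42.0 and 36.9 FPKM, and Snrnp70 (U1-70K) at 42.4, 14.2, 40.03 and 23.3. Snrnp70, a U1 protein gene, was placed on the U4/U6.U5 and LSm list. The RNA helicase Dhx9 was at 56.6, 14.7, 43.6 and 18.2 FPKM, Srrm2 at 65.5, 33.0, 54.0 and 48.9, and Srrm1 at 46.9, 11.7, 50.4 and 29.4. Of the Sm assembly list, Strap was at 35.4, 14.5, 32.5 and 15.1 FPKM, and of the exon junction list Magoh was at 54.6, 27.8, 54.6 and 25.4 and Eif4a3 at 52.3, 15.8, 59.0 and 29.7. Rbm47 was at 1.96, 0.342, 0.108 and 5.40 FPKM, the highest value at P28 as for the Esrp genes.

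**Figure D5:**
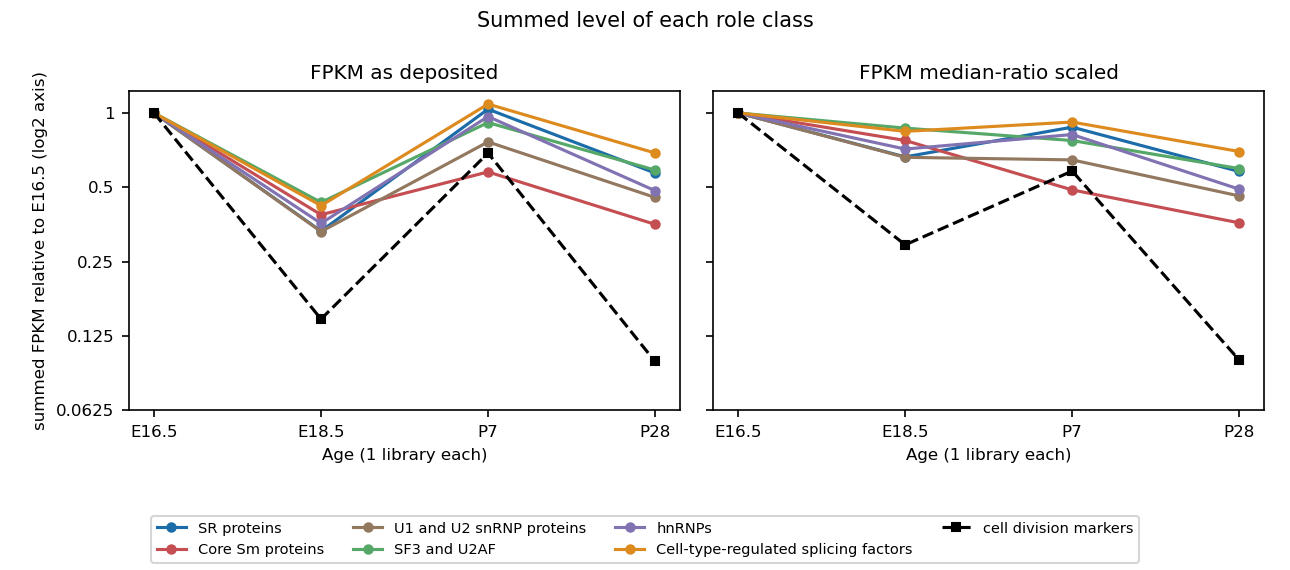
Summed FPKM of each role class relative to E16.5 on a log2 axis, as deposited (left) and after median-ratio scaling (right), with the sum of 10 cell division markers as a dashed line. All 6 class sums are below E16.5 at P28 in both panels, the Sm sum is the lowest of the classes at P7, and the cell division sum is lower than every class at E18.5 and P28.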

How the data were processed

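The authors deposited 1 table of FPKM values, per the file headers, with 1 column per age. Per the submitters' processing notes, TopHat2 2.0.9 and the builds GRCm38 and mm10 were used; no source used here names the program that made the FPKM. Per the labels' protocols, RNA was taken with a QIAGEN circulating nucleic acid kit and Nextera XT libraries were read as paired ends. Entries sharing a symbol were summed (258 symbols, no member among them). Differences are of log2(FPKM + 1). A gene was counted at 2-fold or more with the higher library at 5 FPKM or more. Median-ratio factors came from 14500 symbols above 0 in all libraries. Folds are ratios of FPKM without a pseudocount. With 1 library per age there was no test. Copies were sought with BLAST 2.17.0 in GENCODE M21 transcripts (95% identity, 200 bases). Coordinates are from GENCODE M21 and promoters from RefSeq (GRCm38.p6). The members, lists and motifs were chosen with earlier results of these data known. Named were all members of the Rbfox, Mbnl, Celf, Ptbp and Esrp families, the 3 most abundant members of each other class, the 5 largest differences in each direction per comparison after scaling, and from other lists genes that were abundant or far apart. Other genes named, such as Hnrnph3, Hnrnpul2, Snap25, Tubb3 and Cdh1, were chosen after their values were seen. The counting rule and the scaling were tested on simulated data with libraries of unequal scale. The rule recovered the planted differences after scaling. Without scaling it called many unchanged genes lower at E18.5 and missed many planted increases. Python 3.11.15, numpy 2.4.6, pandas 2.3.3 and matplotlib 3.10.9 were used.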

Additional observations from a re-analysis of the deposited data

How the results depend on the processing

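No paired analysis was possible because each age had 1 library, and for the same reason no library could be left out of a comparison. For E18.5 against E16.5, members at least 2-fold lower numbered 45 as deposited, 7 with median-ratio scaling, 3 with upper-quartile scaling and 4 at a 4-fold threshold. The number higher was 1, or 2 with upper-quartile scaling and 0 with a minimum of 20 FPKM or with symbols listed at 0 left out. The median was -1.30, or -0.39 and -0.31 with these scalings. For P7 against E18.5 the 41 higher members became 2 and 1 with the scalings and 5 at 4-fold, the 0 lower became 1 with either scaling, and the median of 1.25 became 0.13 and, reversed, -0.0016 with upper-quartile scaling. For P28 against P7 the 18 lower became 3 with either scaling, 6 with a pseudocount of 5 FPKM and 1 at 4-fold, and the 0 higher became 2 with no minimum (Esrp1 and Esrp2). For P28 against E16.5 the 23 lower became 13 with a pseudocount of 5 FPKM and 2 at 4-fold; the 1 higher became 3 with no minimum and 0 with a minimum of 20 FPKM or with symbols at 0 left out. For P7 against E16.5 the 2 higher became 1 with either scaling, at 4-fold and with symbols at 0 left out, and the 1 lower became 3 with either scaling and 0 with a pseudocount of 5 FPKM, a minimum of 20 FPKM or 4-fold. Members lowest at P28 numbered 11 as deposited, 43 with median-ratio scaling and 52 when the E18.5 library was left out. Of all 12561 symbols, 1694, 3709 and 5563 were lowest at P28 in these settings. The cause was not tested. Without the 32 members that have near-identical copies (an alternative added after seeing the data, as was leaving out symbols at 0), 11 of 32 were lower at P28 than at E16.5, with a median of -0.77. Depth is unknown, so low values such as those of Rbfox1 and Snrpc carry no interval.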
